A study of Xenopus tropicalis with 4 samples.

Results

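Of 6472 genes read at a mean of at least 20 counts per 1000000 gene reads (CPM) in *Xenopus tropicalis* animal caps, 64 (0.989%) were lower by at least 2-fold in both xRescue libraries than in either xPhf8 library. The genes were chosen on these values: the smaller xPhf8 CPM had to be at least 2 times the larger xRescue CPM. The mirrored rule, for genes higher in xRescue, took 247 genes (3.82%). Every level and fold change below that compares xRescue with xPhf8 over these genes therefore describes the choice and does not test it.

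The RNA came from animal caps at stage NF16, a neurula stage. These explants are cut from the prospective ectoderm and turn into a larval epidermis with multiciliated cells, ionocytes and secretory cells. xRescue caps (replicates 1 and 2) came from embryos given *Xenopus* Phf8 mRNA together with translation-blocking morpholinos against Suv4-20H1 and Suv4-20H2, the enzymes KMT5B and KMT5C. xPhf8 caps (replicates 1 and 2) came from embryos given the same mRNA and no morpholino. Both groups thus carried the injected mRNA, which per the study encodes only an N-terminal part of PHF8, a histone demethylase that takes methyl groups off H4K20me1 and other marks. The comparison asks which transcripts are lower when the methyltransferases are depleted in the presence of this mRNA. Uninjected caps, caps with a control morpholino and caps with the morpholinos alone were not analysed here. The submitters describe the replicates as biological.

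KMT5B and KMT5C convert the monomethyl mark on lysine 20 of histone H4 into the dimethyl and trimethyl forms. A multiciliated cell makes a large set of basal bodies from amplified centrioles, docks them under the apical membrane and grows a motile axoneme from each one. Axonemes move by dynein arms, which are built in the cytoplasm and carried, with the other parts of the cilium, by intraflagellar transport.

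The 4 libraries held 27803072 and 27014575 gene reads in xRescue and 26632491 and 43303059 gene reads in xPhf8. Of all gene reads, 0.298% and 0.368% fell on the 64 genes in xRescue, against 1.055% and 1.244% in xPhf8. Their median level was 14.6 and 22.8 CPM in xRescue, against 64.1 and 62.2 CPM in xPhf8. The other genes past the abundance floor had medians of 63.7 and 60.7 CPM in xRescue and 58.8 and 54.4 CPM in xPhf8. Depth was not limiting for the 64: the lowest count of any of them in any library was 46 reads in xRescue and 652 reads in xPhf8, while 3 reads corresponded to 0.0693 to 0.113 CPM. Since the caps are bulk tissue, fewer cells of a type and less RNA per cell cannot be told apart.

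RNA of the morpholino targets and of the injected mRNA does not check the labels. Translation-blocking morpholinos leave the target RNA in place, and phf8 reads include the injected mRNA. The gene annotated as suv420h1 (KMT5B) had 101 and 125 CPM in xRescue, against 117 and 121 CPM in xPhf8. The KMT5C gene kmt5c had 97.4 and 64.7 CPM in xRescue, against 45.5 and 57.5 CPM in xPhf8. Reads on phf8 came to 2532 and 1405 CPM in xRescue, against 2813 and 2028 CPM in xPhf8. None of the 6 H4K20 genes that could be found was among the 64. The other 3 were setd8 (KMT5A), which places the monomethyl mark, with a log2 fold change of -0.19 ± 0.44, and the mark readers l3mbtl1 and l3mbtl3, at 1.62 ± 0.84 and -0.61 ± 0.42 (SE). Throughout, log2 fold changes are xRescue over xPhf8 from edgeR's quasi-likelihood fit to all 14716 genes tested, with n = 2 libraries a group.

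**Figure D1:**
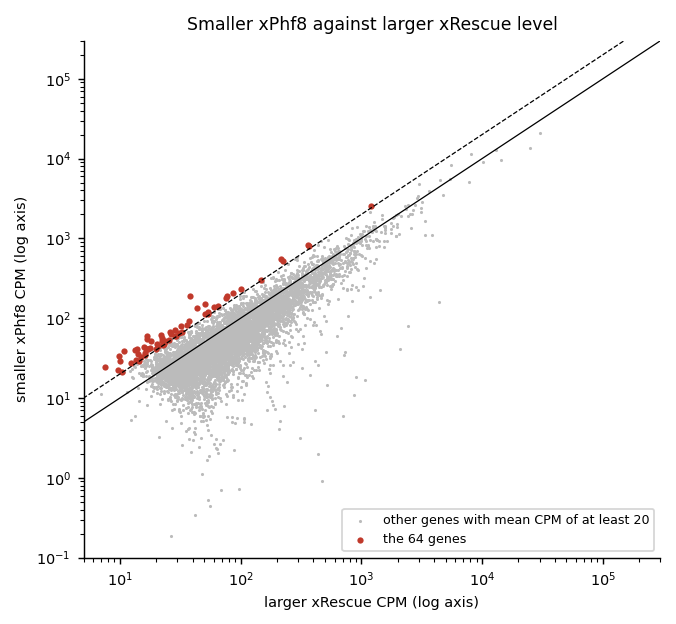
Each point is a gene with a mean of at least 20 CPM, plotted by its larger xRescue CPM (x axis, log scale) and its smaller xPhf8 CPM (y axis, log scale). The solid line marks equal values and the dashed line a ratio of 2; the 64 genes (red) lie on or above the dashed line, with chga, at a ratio of 4.92, farthest from it.

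Most of the 64 genes lay close to the threshold. The ratio of the smaller xPhf8 to the larger xRescue value reached 2.5 in 19 of the 64, 3 in 8 and 3.5 in 3. The 3 genes just inside were hes8 (2.01), ssx2ip (2.02) and bod1 (2.03), and the 3 just outside were armc4 (ratio 1.999), dnaaf1 (1.987) and mycbpap (1.98). Both armc4 and dnaaf1 belong to the axonemal dynein genes, the first as part of the arm docking machinery and the second as an assembly factor, so the threshold divides genes of like function. By group means, xPhf8 exceeded xRescue by 2.23-fold to 13.4-fold, with a median of 3.45-fold and 7 genes above 5-fold. The fitted log2 fold changes ran from -3.93 to -1.30, with a median of -1.93, beside a median of -0.06 over all genes tested.

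In edgeR's test, 0 of the 64 genes had an adjusted p below the threshold of 0.05, as did 0% of all genes in the lower direction and 5 genes (0.034%) in the higher direction. At an unadjusted p below that threshold stood 62 of the 64 and 688 (4.68%) of all genes, both counted in the lower direction only. DESeq2 called 58 of the 64 lower, out of 201 (1.37%) of all genes. As the rule used this contrast, nothing is read from these counts.

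All 64 genes had a symbol in the study's supplementary tables, beside 47.3% of the genes past the floor. Those tables are shortened and sorted by p, and some were made from these libraries, so this follows in part from the choice. Of the 64 symbols, 12 were placeholder names and 1 was a name that a spreadsheet had turned into a date. By what their products are known for, 24 were placed with cilia, centrioles or microtubules and 5 with secretion or neurons. Another 5 were placed with transcription and chromatin and 12 with signalling, transport or metabolism, and 18 were given no role. This grouping was made after the genes were known, with each gene in 1 group at most. The microtubule gene stmn1 was placed with secretion and neurons, as was furin, which is not on the neuroendocrine list used below.

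**Figure D2:**
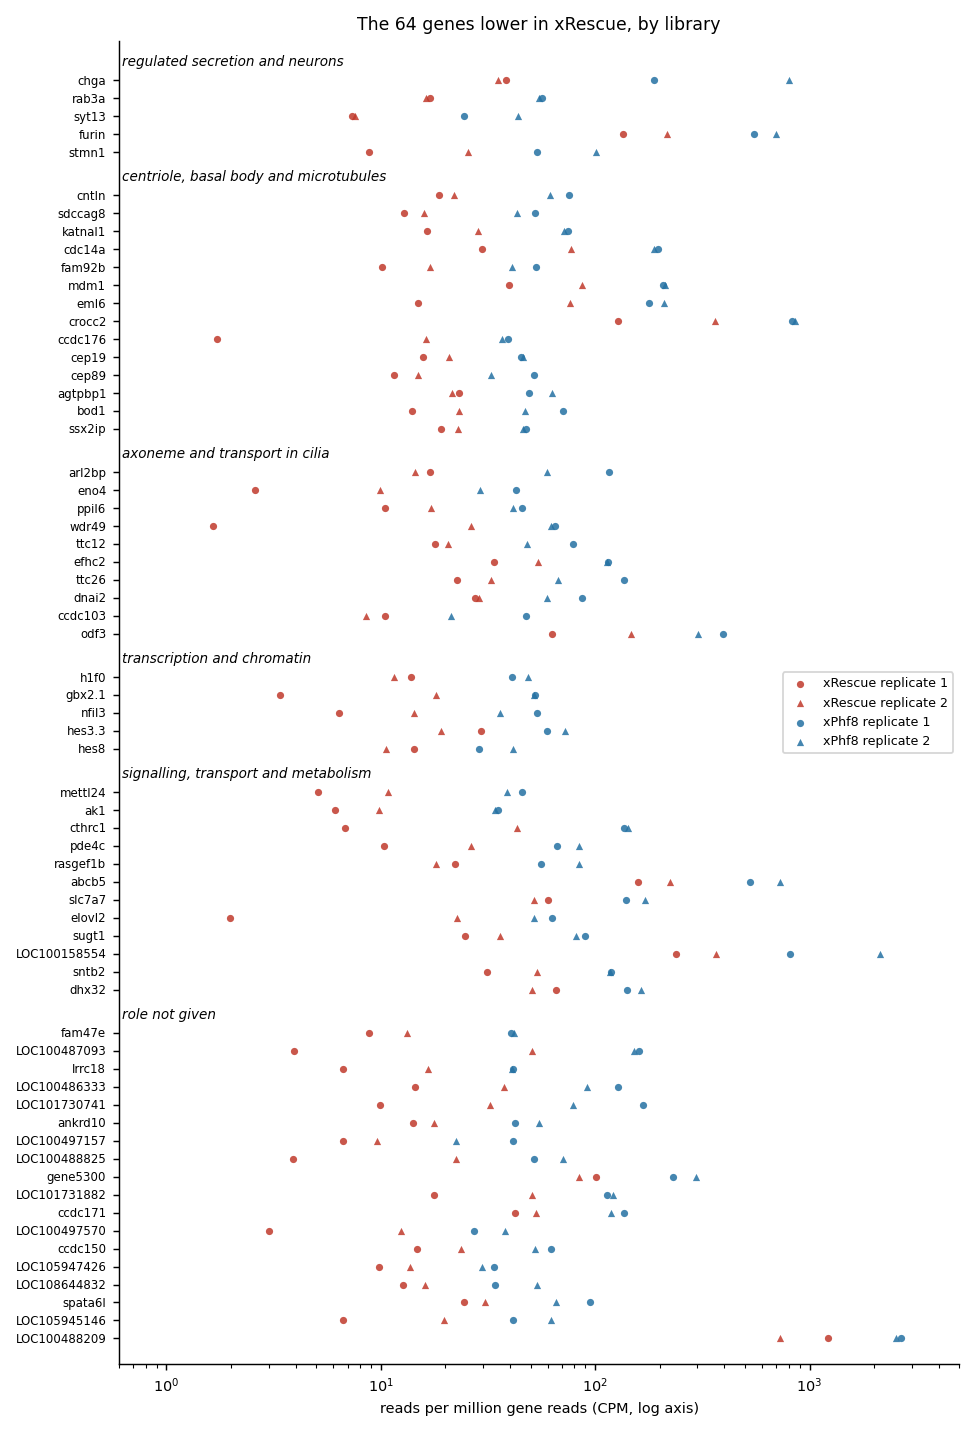
Level of each of the 64 genes in each library, in CPM on a log axis, grouped by role and ordered within a role by the ratio of the smaller xPhf8 to the larger xRescue value. Red marks are xRescue and blue marks xPhf8 (circles, replicate 1; triangles, replicate 2); the groups do not overlap in any gene, as the rule demands, and xRescue replicate 1 is lower than replicate 2 in 51 of the 64.

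The group with the most genes was that of centrioles, basal bodies and microtubules, with 14 genes and a median log2 fold change of -1.87. The gene with the most reads among them was crocc2 (chromosome 5), a relative of rootletin, which forms the ciliary rootlet. It had 128 and 362 CPM in xRescue, against 829 and 856 CPM in xPhf8, a log2 fold change of -1.92 ± 0.49. The xPhf8 libraries were nearly equal for crocc2 while the xRescue libraries differed from each other by a larger factor than replicate 2 did from xPhf8. The phosphatase gene cdc14a (chromosome 4) had 29.7 and 77.1 CPM in xRescue, against 196 and 187 CPM in xPhf8. For mdm1 (chromosome 3), whose product sits in the centriole lumen, 39.6 and 86.7 CPM in xRescue stood against 208 and 211 CPM in xPhf8. In both genes, too, the low library was xRescue replicate 1.

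Other genes of the centriole group had closer xRescue replicates. The centriole linker gene cntln (chromosome 1) had 18.8 and 21.9 CPM in xRescue, against 75.4 and 61.8 CPM in xPhf8, and the log2 fold change was -1.89 ± 0.36. The ciliopathy gene sdccag8 (chromosome 5) had 12.8 and 15.9 CPM in xRescue, against 52.3 and 43.0 CPM in xPhf8. The spread within each group was small beside the gap between groups for cntln and sdccag8. The same held for cep19, with 15.8 and 20.7 CPM in xRescue, against 45.3 and 46.3 CPM in xPhf8. The distal appendage gene cep89 had 11.6 and 15.0 CPM in xRescue, against 51.9 and 32.5 CPM in xPhf8, with the wider spread in xPhf8.

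Several genes of the centriole and basal body group act where the cilium meets the cell. The product of fam92b works with Cby1 at the ciliary base, and the gene had 10.1 and 16.9 CPM in xRescue, against 52.9 and 40.9 CPM in xPhf8. The gene ccdc176 encodes a basal body orientation factor, and it had 1.73 and 16.3 CPM in xRescue, against 39.2 and 36.7 CPM in xPhf8. Of the xRescue libraries, replicate 1 was thus almost empty for ccdc176 and replicate 2 was not. The deglutamylase gene agtpbp1, which trims the tails of tubulin, had 23.2 and 21.6 CPM in xRescue, against 49.0 and 63.1 CPM in xPhf8.

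The microtubule genes of the same group were katnal1, a katanin-like severing enzyme, eml6, a microtubule-associated protein, and bod1, named for chromosome orientation on the spindle. For katnal1 the levels were 16.4 and 28.4 CPM in xRescue, against 74.5 and 71.2 CPM in xPhf8. For eml6 they were 14.9 and 75.9 CPM in xRescue, against 179 and 209.9 CPM in xPhf8, and the log2 fold change of -2.23 ± 0.72 became -1.47 without xRescue replicate 1. The last gene, ssx2ip, a centrosome maturation factor, had the smallest fold change of the 64, at -1.30 ± 0.37 on the log2 scale.

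The axoneme and its transport were represented by 10 genes with a median log2 fold change of -1.92. In all 10, xPhf8 replicate 1 was higher than xPhf8 replicate 2. The largest ratio of the smaller xPhf8 to the larger xRescue value among them, 3.52, was that of arl2bp (chromosome 4), whose product binds the small GTPase ARL2 at the base of cilia. It had 16.9 and 14.5 CPM in xRescue, against 116 and 59.6 CPM in xPhf8, a log2 fold change of -2.62 ± 0.43. The intraflagellar transport gene ttc26 (IFT56; chromosome 4) had 22.6 and 32.5 CPM in xRescue, against 136 and 67.3 CPM in xPhf8. For arl2bp and ttc26, xPhf8 replicate 1 was about 2 times xPhf8 replicate 2.

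Of the dynein genes, dnai2 (chromosome 10), an intermediate chain of the outer arm, had 27.6 and 28.8 CPM in xRescue, against 86.4 and 59.4 CPM in xPhf8. The arm attachment factor gene ccdc103 (chromosome 10) had 10.5 and 8.55 CPM in xRescue, against 47.4 and 21.3 CPM in xPhf8. Another dynein assembly gene, ttc12 (chromosome 7), had 17.8 and 20.5 CPM in xRescue, against 78.9 and 47.9 CPM in xPhf8. The xRescue replicates of dnai2, ccdc103 and ttc12 were close together, and the xPhf8 replicates were not, with replicate 1 the higher in each gene.

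The doublet microtubule gene efhc2 (chromosome 2) showed the reverse, with 33.6 and 53.9 CPM in xRescue, against 114 and 114 CPM in xPhf8. The cyclophilin-like gene ppil6 (chromosome 5) had 10.5 and 17.2 CPM in xRescue, against 45.6 and 41.5 CPM in xPhf8. The sperm tail gene odf3 (chromosome 3), named for the outer dense fibres of sperm, had 62.6 and 148 CPM in xRescue, against 393 and 300.3 CPM in xPhf8. In efhc2, ppil6 and odf3 replicate 1 was the lower of the xRescue libraries. The enolase-like gene eno4, known from sperm, had 2.59 and 9.96 CPM in xRescue, against 42.7 and 29.0 CPM in xPhf8. The WD-repeat gene wdr49 had 1.65 and 26.3 CPM in xRescue, against 65.1 and 62.5 CPM in xPhf8, so that the xRescue replicates differed by 15.9-fold, the widest replicate gap among the 64.

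The cilium genes among the 64 were a part of a wider set that lay lower. Lists of axonemal dyneins, of radial spoke, central pair and doublet proteins, of intraflagellar transport and BBSome proteins and of centriole and basal body proteins held 184 genes that could be found and tested. Both xRescue libraries were below both xPhf8 libraries in 161 of the 184 (87.5%) and above both in 1, which was chosen for mention after its values were seen: nphp4, with 13.9 and 5.37 CPM in xRescue, against 3.57 and 3.42 CPM in xPhf8. Over all genes tested, 17% were below and 25.7% above in this sense, and over the genes tested that had a symbol, 25% and 31%. The log2 fold change was below 0 in 182 of the 184, and its median was -1.28. DESeq2 called 46 of the 184 lower and 0 higher, beside 201 lower and 339 higher of the 5862 genes tested that had a symbol. Of the 184, 17 belong to the 64 genes. The rule placed these 17 below in both xRescue libraries, and all 17 are among the 46 that DESeq2 called. In edgeR's test 0 of the 184 were called.

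The 4 lists lay lower by similar amounts. The median log2 fold change was -1.28 in the 33 axonemal dynein genes, -1.27 in the 59 radial spoke, central pair and doublet genes, -1.25 in the 38 transport genes and -1.31 in the 54 centriole genes. Such a median was not particular to cilium lists: it was -1.25 in neural plate and border genes and -1.17 in ionocyte genes. In goblet and small secretory genes it was -0.62 and in epidermal genes -0.34. Of the 152 genes of these lists that passed the abundance floor, 17 (11.2%) were among the 64. Over all genes past the floor that had a symbol, the share was 2.09%. Their distribution was uneven: 11 came from the 47 centriole genes past the floor and 2 from each of the other lists. Those lists held 31 dynein, 49 radial spoke and doublet and 25 transport genes past the floor. The summed level of the 184 genes was 6399 and 9229 CPM in xRescue, against 20047 and 13822 CPM in xPhf8. Replicate 1 was the lower library in xRescue and the higher one in xPhf8, so the gap was widest between the libraries numbered 1. Symbols were known only for genes that ranked high in the study's own tables, some of them made from these libraries, so the lists are not an even sample and their direction is not independent evidence.

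**Figure D3:**
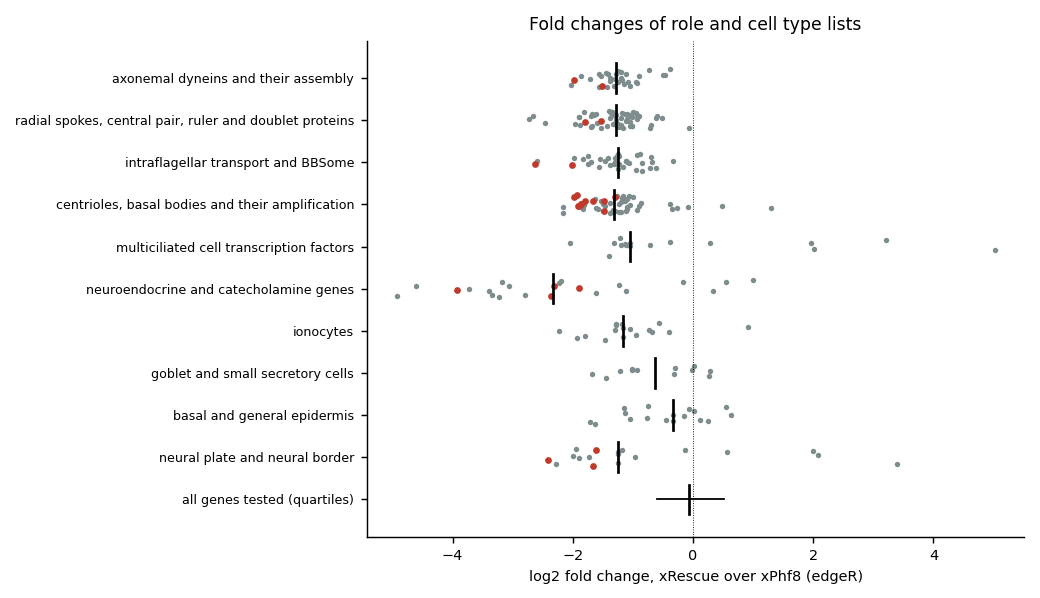
Log2 fold change, xRescue over xPhf8 (x axis), of every tested gene of 10 lists (rows); red points belong to the 64 genes, black bars are list medians, and the lowest row gives the median and quartiles of all genes tested. The 4 cilium and centriole lists lie around -1.3, the neuroendocrine list is centred at -2.34, and all genes tested at -0.06. The medians of the neural plate and border (-1.25), ionocyte (-1.17) and multiciliated cell transcription factor (-1.05) lists lie near those of the cilium lists. Those of the secretory (-0.62) and epidermal (-0.34) lists are closer to that of all genes.

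The regulators above these genes were not among the 64. Of 16 genes that control multiciliated cell fate and could be tested, 10 were lower in both xRescue libraries and 4 were higher, beside 25% and 31% of the genes tested that had a symbol. The forkhead gene foxj1, a master regulator of motile cilia, had 74.3 and 70.2 CPM in xRescue, against 184 and 103 CPM in xPhf8. The p53 family gene tp73 had 40.3 and 43.7 CPM in xRescue, against 78.1 and 79.1 CPM in xPhf8. The multicilin-like gene mci-like had 105 and 146 CPM in xRescue, against 450.4 and 155 CPM in xPhf8, so that xRescue replicate 2 and xPhf8 replicate 2 were close. The 4 higher genes were the Notch receptor gene notch1, the Notch target genes hes1 and hes2, and fam46a. Levels of notch1 were 424 and 345 CPM in xRescue, against 82.9 and 89.3 CPM in xPhf8. The median log2 fold change of the 16 was -1.05, and it was -0.59 without xPhf8 replicate 1.

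Secretion and neuronal genes made up 5 of the 64, with a median log2 fold change of -2.32. The largest change of all 64 was that of chga (chromosome 8), which encodes chromogranin A, a core protein of the dense-core granules of endocrine cells and neurons. It had 38.2 and 35.4 CPM in xRescue, against 188 and 799.6 CPM in xPhf8, and the log2 fold change was -3.93 ± 0.70. The xRescue libraries were alike, and xPhf8 replicate 2 was 4.26-fold above replicate 1, the widest gap between xPhf8 replicates among the 64. Without xPhf8 replicate 2 the log2 fold change of chga was -2.44.

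The vesicle gene rab3a was steadier. When a library was left out, the log2 fold change of syt13 ran from -2.74 to -1.80 and that of stmn1 from -3.33 to -1.70. The gene for RAB3A (rab3a; chromosome 1), a small GTPase of secretory and synaptic vesicles, had 16.9 and 16.2 CPM in xRescue, against 56.3 and 54.6 CPM in xPhf8. Its replicates were close in both groups, and its log2 fold change of -1.89 ± 0.36 stayed between -1.91 and -1.85 whichever library was left out. The synaptotagmin gene syt13 (chromosome 4) had 7.34 and 7.59 CPM in xRescue, against 24.5 and 43.9 CPM in xPhf8. The stathmin gene stmn1 (chromosome 2), whose product takes apart microtubules, had 8.78 and 25.5 CPM in xRescue, against 53.3 and 100.5 CPM in xPhf8. The protease furin, which cleaves precursor proteins in the trans-Golgi, had 136 and 216 CPM in xRescue, against 551 and 699 CPM in xPhf8.

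Other neuroendocrine and catecholamine genes were also low in xRescue. Of 12 past the abundance floor, 4 were among the 64, beside 2.09% of all genes past the floor that had a symbol. Of 22 that could be tested, 15 lay below xPhf8 in both xRescue libraries and 2 above, beside 25% and 31% of the genes tested that had a symbol, and the median log2 fold change was -2.34. The 2 above were the transcription factor genes gata2, with 793 and 614 CPM in xRescue, against 374 and 489.8 CPM in xPhf8, and insm1, with 29.5 and 24.3 CPM in xRescue, against 7.92 and 16.1 CPM in xPhf8. DESeq2 called 11 lower, 4 of them members, beside 201 of the 5862 genes tested that had a symbol. The rule placed these 4 members below in both xRescue libraries, so they are among the 15 by choice. The list was made with earlier results of these data known, and its direction is not independent evidence. The transcription factor gene hand2, which acts in sympathetic neurons and the heart, had 3.42 and 7.03 CPM in xRescue, against 11.3 and 112 CPM in xPhf8. Its partner in sympathetic neurons, phox2a, had 2.81 and 5.03 CPM in xRescue, against 13.9 and 44.7 CPM in xPhf8. For hand2 and phox2a, as for chga, xPhf8 replicate 2 was far above xPhf8 replicate 1. The enzyme genes of catecholamine synthesis went further: dbh had 6.55 and 0.48 CPM in xRescue, against 5.63 and 55.9 CPM in xPhf8, and th had 2.52 and 1.26 CPM in xRescue, against 2.78 and 27.1 CPM in xPhf8. For dbh the groups overlapped, and for th xPhf8 replicate 1 was barely above xRescue. The dopamine transporter gene slc6a3 behaved alike, with 13.3 and 6.18 CPM in xRescue, against 5.90 and 111 CPM in xPhf8. The difference in the catecholamine genes thus rested largely on 1 xPhf8 library, and the list's median was -1.43 without xPhf8 replicate 2.

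**Figure D4:**
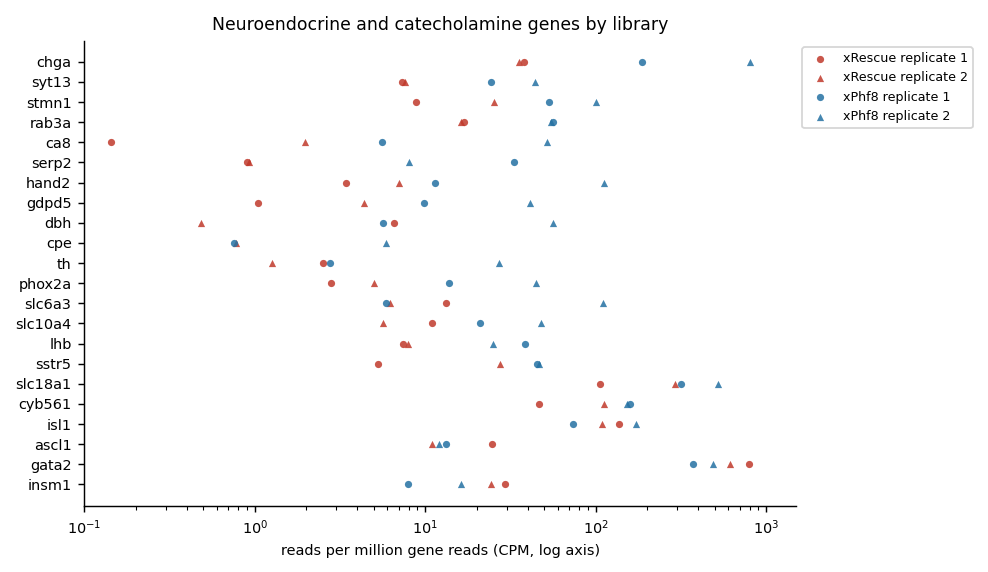
Levels of the 22 tested neuroendocrine and catecholamine genes (rows) in each library, in CPM on a log axis, with the 0 of cpe in xRescue replicate 1 not drawn; red marks are xRescue and blue marks xPhf8, circles replicate 1 and triangles replicate 2. The top 4 rows belong to the 64 genes; in dbh, th and slc6a3 xPhf8 replicate 1 lies within or next to the xRescue values and only xPhf8 replicate 2 is high.

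The 5 genes of transcription and chromatin had a median log2 fold change of -1.97. The linker histone gene h1f0 (histone H1.0; chromosome 4), a variant typical of cells that have stopped dividing, had 13.9 and 11.5 CPM in xRescue, against 40.7 and 48.5 CPM in xPhf8. The homeobox gene gbx2.1 (chromosome 9), which acts in neural border and hindbrain patterning, had 3.38 and 18.0 CPM in xRescue, against 52.5 and 51.7 CPM in xPhf8. The bZIP factor gene nfil3 had 6.40 and 14.3 CPM in xRescue, against 53.4 and 36.1 CPM in xPhf8. In gbx2.1 and nfil3 xRescue replicate 1 was the low library, whereas h1f0 was slightly lower in replicate 2.

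The other factors of this group were hes3.3 and hes8, genes of the hairy and enhancer-of-split family of repressors. Levels of hes3.3 were 29.3 and 19.0 CPM in xRescue, against 59.7 and 72.1 CPM in xPhf8. Levels of hes8 were 14.3 and 10.6 CPM in xRescue, against 28.7 and 41.5 CPM in xPhf8. Family members thus lay on both sides: hes1 had 196 and 150 CPM in xRescue, against 41.1 and 39.1 CPM in xPhf8. Together with gbx2.1, hes3.3 and hes8 were the members on a list of neural plate and border genes, of which 10 of 18 tested were lower and 3 higher in both xRescue libraries, beside 25% and 31% of the genes tested that had a symbol. The rule placed gbx2.1, hes3.3 and hes8 among these 10, and the list was made with earlier results of these data known. One of the 3 higher genes, sox9, singled out after its values were seen, had 67.8 and 49.8 CPM in xRescue, against 2.63 and 7.27 CPM in xPhf8.

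Among the 12 genes of signalling, transport and metabolism, the median log2 fold change was -2.07. The drug transporter gene abcb5 had 158 and 224 CPM in xRescue, against 525 and 729 CPM in xPhf8. The amino acid transporter gene slc7a7 had 60.1 and 51.9 CPM in xRescue, against 139 and 170.0 CPM in xPhf8. The gene LOC100158554, listed as clca3p (a relative of calcium-activated chloride channel regulators) in RefSeq, had 238 and 366 CPM in xRescue, against 807 and 2134 CPM in xPhf8. Like chga, LOC100158554 was more than 2-fold higher in replicate 2 of xPhf8, and no other of the 64 was.

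The secreted matrix protein gene cthrc1 had 6.83 and 43.2 CPM in xRescue, against 136 and 142 CPM in xPhf8, and its log2 fold change of -2.60 ± 0.80 was -1.79 without xRescue replicate 1. The elongase gene elovl2, which acts on very long polyunsaturated fatty acids, had 1.98 and 22.7 CPM in xRescue, against 63.1 and 52.0 CPM in xPhf8. The xPhf8 libraries were close to each other in both genes, and the xRescue libraries were not. The adenylate kinase gene ak1, which balances adenine nucleotides, had 6.11 and 9.85 CPM in xRescue, against 35.3 and 34.0 CPM in xPhf8. The methyltransferase-like gene mettl24 had 5.11 and 10.9 CPM in xRescue, against 45.7 and 38.8 CPM in xPhf8, and at 3.58 the second largest threshold ratio. The cyclic AMP phosphodiesterase gene pde4c had 10.4 and 26.3 CPM in xRescue, against 66.3 and 84.5 CPM in xPhf8.

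The rest of this group were rasgef1b, an exchange factor for Ras-like GTPases, sugt1, a co-chaperone of HSP90, sntb2, a syntrophin, and dhx32, a helicase-like protein, with log2 fold changes of -1.95 ± 0.40, -1.63 ± 0.37, -1.61 ± 0.39 and -1.55 ± 0.32 in this order. Levels of dhx32 were 65.4 and 50.5 CPM in xRescue, against 141 and 163 CPM in xPhf8. Among the 64, dhx32 had the most reads on the opposite strand in every library.

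For 18 genes no role is given here, among them most of those with placeholder names. The gene with the most reads of all 64, LOC100488209 (chromosome 4), was one of them, with 1213 and 726 CPM in xRescue, against 2682 and 2519 CPM in xPhf8. Unlike most of the 64, it was lower in xRescue replicate 2 than in replicate 1. The widest gap between xRescue replicates among these 18 was that of LOC100487093, with 3.92 and 50.8 CPM in xRescue, against 160 and 151 CPM in xPhf8. Of the named genes, fam47e had 8.78 and 13.2 CPM in xRescue, against 40.3 and 41.6 CPM in xPhf8. The gene spata6l, named after a sperm gene and placed on the centriole list, had 24.4 and 30.8 CPM in xRescue, against 94.5 and 65.5 CPM in xPhf8. The others were lrrc18, ankrd10, ccdc171, ccdc150, gene5300 (the gene with a date for a name) and the remaining placeholders, and across the 18 the log2 fold changes ran from -2.66 to -1.55.

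The xRescue replicates differed in a shared direction. In 51 of the 64 genes (79.7%) xRescue replicate 1 was below replicate 2, compared with 46.4% of the 6408 other genes past the floor. This was not particular to the 64. It held in 28 of 33 tested dynein, 47 of 59 radial spoke and doublet, 24 of 38 transport and 45 of 54 centriole genes. Goblet and small secretory genes and ribosomal protein genes each had 10 of 12, but epidermal genes 8 of 17 and immediate-early genes 12 of 28. Replicate 1 of xRescue was lower by more than 2-fold in 23 of the 64 and by more than 5-fold in 8. No member was more than 2-fold lower in replicate 2. The median fold between xRescue replicates was 1.60 in the 64 genes and 1.31 in the others. For the xPhf8 replicates the medians were 1.22 in the 64 genes and 1.35 in the others, and 5 of the 64 were over 2-fold apart, 2 higher in replicate 2 and 3 in replicate 1. The rule compares the smaller xPhf8 value with the larger xRescue value, so the choice can act on the spread in either group. The 64 genes had the narrower spread in xPhf8 and the wider spread in xRescue, and the part of the choice in this was not tested.

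**Figure D5:**
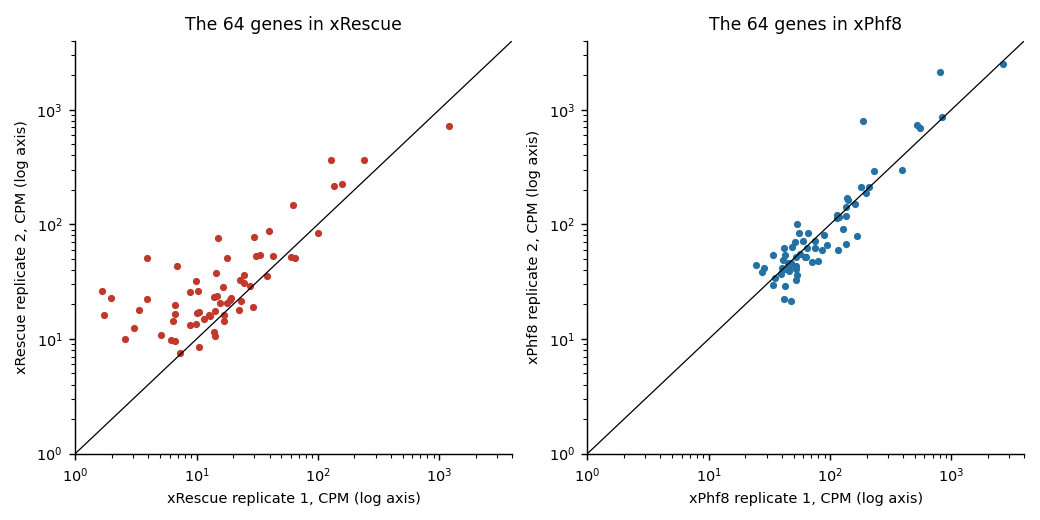
Replicate 2 against replicate 1 for the 64 genes, in CPM on log axes, in xRescue (left) and in xPhf8 (right); the line marks equal values. In xRescue most points lie above the line (51 of 64), some by more than 5-fold, whereas in xPhf8 the points scatter on both sides of it.

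Markers of several cell types moved with the groups, and their part in the values of the 64 genes was not tested. Of 9 multiciliated cell markers 7 were found, 1 of them the member dnai2. Their summed level was 678 and 742 CPM in xRescue, against 1820 and 981 CPM in xPhf8. Both xRescue libraries were below both xPhf8 libraries in 6 of the 7, beside 25% of the genes tested that had a symbol. All 8 ionocyte markers were found, at a sum of 206 and 531 CPM in xRescue, against 624 and 695 CPM in xPhf8. Of these, 5 were lower in both xRescue libraries, beside the same 25%. Of 17 genes on the longer ionocyte list, 15 were lower in xRescue replicate 1 than in replicate 2, and foxi4.1 and foxi4.2 were higher. The forkhead gene foxi4.1, 1 of the 8 markers, had 57.7 and 23.9 CPM in xRescue, against 90.4 and 73.7 CPM in xPhf8. Genes with wide gaps, chosen for mention after their values were seen, were ca2 and atp6v1b1: the carbonic anhydrase gene ca2 had 0 and 48.9 CPM in xRescue, against 63.7 and 91.6 CPM in xPhf8, and the proton pump gene atp6v1b1 had 0.83 and 39.1 CPM in xRescue, against 66.9 and 105 CPM in xPhf8. The count of 0 reads allows a level of up to 0.108 CPM in that library, counting error only.

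The sums of the secretory and epidermal markers overlapped between groups. All 6 goblet and small secretory cell markers were found and summed to 3355 and 5281 CPM in xRescue, against 3208 and 5430 CPM in xPhf8. Of the 6, 1 was lower in both xRescue libraries, beside 25% of the genes tested that had a symbol. The 5 of 8 epidermal markers that were found summed to 516 and 889 CPM in xRescue, against 872 and 1766 CPM in xPhf8. Of these 5, 2 were lower in both xRescue libraries, beside the same 25%. Neural tissue was represented by 1 of 5 markers, ncam1, at 2.19 and 8.40 CPM in xRescue, against 11.1 and 25.7 CPM in xPhf8. Of the mesoderm markers 2 of 6 were found, at a sum of 57.9 and 62.7 CPM in xRescue, against 45.5 and 208 CPM in xPhf8. Of the endoderm markers 2 of 4 were found, at a sum of 45.8 and 20.0 CPM in xRescue, against 7.81 and 2.68 CPM in xPhf8. None of the found markers was at 0 in all 4 libraries. Immediate-early genes, which respond to stress and wounding, were higher in both xRescue libraries in 25 of 28, beside 31% of the genes tested that had a symbol. Their summed level was 5223 and 4985 CPM in xRescue, against 1210 and 1659 CPM in xPhf8.

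Reads on the opposite strand were a small part of the reads at the 64 genes, at 1.58% and 0.939% in xRescue, against 0.363% and 0.282% in xPhf8. The means were 1.26% ± 0.45 in xRescue and 0.323% ± 0.057 in xPhf8 (SD, n = 2 each; two-sided exact permutation p = 0.333, the smallest that 2 libraries against 2 allow). This share moves with the sense reads, which the rule made lower in xRescue. Scaled to gene reads, the opposite-strand reads of the 64 genes came to 47.7 and 34.9 CPM in xRescue, against 38.5 and 35.2 CPM in xPhf8, and the groups overlapped.

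The rule depended on how libraries were scaled. With TMM factors, which were 1.08 and 1.03 in xRescue and 0.982 and 0.918 in xPhf8, the same rule took 120 genes (1.85%) as lower and 189 (2.92%) as higher, and all 64 stayed among the lower ones. The median log2 fold change of all genes tested was -0.06 with TMM and 0.09 with plain library sums. With TMM, 22.5% of all genes tested lay below in both xRescue libraries and 21% above, and 169 of the 184 cilium list genes lay below and 1 above.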

How the data were processed

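Whole-number read counts per gene, not normalised and not pooled, were deposited by the authors for 4 libraries: rRNA-depleted total RNA in directional, paired-end libraries, aligned with STAR (2.7.1a) to *X. tropicalis* v9.1 with Xenbase gene models. STAR counts uniquely mapped reads only, so near-identical copies lose reads. Trimming is not given in the sources used here. The reverse-stranded counts were used, without the line pooling features that lack an identifier. CPM are per column sum. Of 34177 identifiers, 14716 had at least 1 read in 3 of the 4 libraries and were tested with edgeR (4.0.16, R 4.3.3) by the quasi-likelihood test with TMM and Benjamini-Hochberg adjustment, on simulated data first. DESeq2 (1.42.0) was an alternative, beside other scalings, filters, floors, folds, strand counts, a replicate block and leaving out each library.

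Symbols and chromosomes came from shortened supplementary tables of the study, sorted by p, which name 47.3% of the 6472 genes past the floor and 39.8% of those tested. The members, lists and tests were chosen with earlier results of these data known. Named genes were, in each of the first role lists, the 3 members with the highest xPhf8 level and the 3 with the largest ratio, then the 10 members with the largest ratios and the 10 with the most reads among those with a proper symbol, the 3 genes on either side of the threshold and every H4K20 gene found; other names were chosen after their values were seen. Counts of non-overlap under TMM were added after seeing the data. Floors in CPM cover counting error only, since no molecular identifiers were used. The SE of a log2 fold change was derived from the F statistic of edgeR's quasi-likelihood fit. Both this SE and the SD between libraries include variation between replicates. Promoter and protein sequences were not used here, so the planned promoter comparison was not made.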

Additional observations from a re-analysis of the deposited data

How the results depend on the processing

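The number of genes taken by the rule was 64 as reported, 120 with TMM-adjusted library sizes, 111 with a floor of 10 CPM, 26 with a floor of 50 CPM, 264 at a fold of 1.5 and 8 at a fold of 3. Unstranded counts gave 64, of which 62 were shared. Leaving out a library sets fewer conditions and gave 122 to 473 genes, with 53 of the 64 kept without xPhf8 replicate 1, 56 without xPhf8 replicate 2 and 64 without either xRescue library. Of the 64, edgeR called 0, DESeq2 58 and edgeR without a low-count filter 61, and leaving out 1 library gave 0 to 30 (2 without xPhf8 replicate 1, 1 without xPhf8 replicate 2, 0 without xRescue replicate 1, 30 without xRescue replicate 2); where a group is then 1 library, it is assumed to vary like the other group. Calls over all genes rose as well, from 0 lower and 5 higher in the main edgeR fit. Without a low-count filter they were 382 lower and 344 higher of 19599 genes. Leaving out xRescue replicate 2 also raised them in both directions. A replicate block in the edgeR fit gave 61 of the 64, out of 367 lower genes (2.49% of 14716) in all, beside 333 higher. The added calls in these settings were thus not limited to the 64 or to the lower direction. Same-numbered libraries deviated together (r = 0.232 over the genes tested and 0.455 over those past the abundance floor), but with only 2 numbers, whose meaning the labels do not give, they were not treated as pairs. Leaving out a library put the median log2 fold change between -2.36 and -1.62 for the 64 genes, -1.57 and -0.90 for axonemal dyneins, -1.71 and -1.03 for centrioles, -1.13 and -0.59 for multiciliated cell transcription factors and -2.73 and -1.43 for neuroendocrine genes. The cause was not tested. Of the 39 genes named by rule, none changed direction under another scaling, strand or block, and the other genes named were not refitted in this way. Only setd8 among the 39, which lay near 0, changed sign when a library was left out, and ran from -0.61 to 0.43 on the log2 scale. The promoter comparison was not run. With 2 libraries a group, no 2-sided exact permutation test can go below p = 0.333.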

Other observations

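The 64 genes were spread over the genome: 61 lay on 10 assembled chromosomes of the v9.1 build and 3 on unplaced scaffolds. Chromosomes 1 and 4 held 11 each (17.2% of the 64), beside 14.1% and 10.5% of all genes past the abundance floor that had a symbol, and chromosome 3 held 3 (4.69%) beside 11.2%. These shares are given without a test.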
